A study of Homo sapiens with 2 samples.

Results

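The human reference hg19 holds, beside its chromosomes, contigs that were assembled but could not be ordered on a chromosome (unlocalised, named chrN_gl..._random) or not assigned to any (unplaced, named chrUn_gl...). All of them except chrUn_gl000220 were examined here, in whole-genome bisulfite sequencing (WGBS) of the human cell line HEK293T, of embryonic kidney origin. Bisulfite turns unmethylated cytosine into a base read as T, so that the share of reads with C at a CpG gives its methylation level. The rule was a CpG on such a contig with 5 or more reads of C or T in both libraries, and it gave 9554 of the 1331621 CpGs that reached this depth on all sequences, on 49 of 58 contigs. The 58 contigs span 5.95 Mb and 75734 CpGs of the reference, and 20 of them are unlocalised and 38 unplaced. Of the 58 contigs, 35 had 20 or more such CpGs, 4 had 5 to 19, 10 had 1 to 4 and 9 had none.

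Neg, 1 library, is the negative control, which the study describes as cells without transduction. The other library, dCas9+3A+HOXA5, also 1, came from cells sorted 30 days after infection with a nuclease-dead Cas9 that carries the SunTag array, the methyltransferase DNMT3A tethered to that array through an antibody fragment, and a guide RNA to the HOXA5 locus. Both samples have the same treatment text in the labels, and only the title separates them. There were no replicates, so that no difference could be set against the spread between cultures, and every test compares the reads of these 2 libraries rather than the conditions.

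Contigs of this kind are mostly satellite DNA, which repeats in tandem around centromeres and on the short arms of acrocentric chromosomes, and segmental duplications, blocks that recur at several places with few differences. Satellite and pericentromeric DNA is heavily methylated in most somatic tissues, and many cell lines have lost part of that methylation. Reads from such sequence often match several places of a reference equally well, so the reads counted on a contig may come from its copies elsewhere.

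A few stretches show the kinds of sequence involved, all from GRCh37 (the assembly of hg19), plus strand, 5′ to 3′. The stretch of chr4_gl000193_random with the largest gain of the called contig tiles of 1 kb is given with its 5 CpGs covered in both libraries in capitals.

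chr4_gl000193_random:73605-73904: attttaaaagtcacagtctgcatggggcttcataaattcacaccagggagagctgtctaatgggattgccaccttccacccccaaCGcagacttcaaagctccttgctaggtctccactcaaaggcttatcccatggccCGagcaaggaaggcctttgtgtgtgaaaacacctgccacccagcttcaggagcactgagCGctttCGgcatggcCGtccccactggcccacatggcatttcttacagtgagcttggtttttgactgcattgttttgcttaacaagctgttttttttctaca

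The second, from the satellite contig chr9_gl000199_random, has in capitals a CENP-B box, the 15-base motif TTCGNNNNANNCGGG that the centromere protein CENP-B binds, less so when its CpGs are methylated. The box lies on the minus strand here, and both of its CpGs were called higher in dCas9+3A+HOXA5. It was chosen for these calls, and no other CpG in a box was called.

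chr9_gl000199_random:51455-51624: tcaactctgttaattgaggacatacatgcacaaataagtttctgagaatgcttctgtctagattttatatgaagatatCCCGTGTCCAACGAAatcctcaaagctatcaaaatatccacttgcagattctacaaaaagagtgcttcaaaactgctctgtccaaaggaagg

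The third, from chrUn_gl000226, the contig with the highest depth, has in capitals the 3 CpGs covered in both libraries, of which the 2 nearest each other were called.

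chrUn_gl000226:9589-9787: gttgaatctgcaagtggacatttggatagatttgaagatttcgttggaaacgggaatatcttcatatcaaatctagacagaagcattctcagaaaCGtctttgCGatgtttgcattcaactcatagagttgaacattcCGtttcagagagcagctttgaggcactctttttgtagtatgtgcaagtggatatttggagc

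The fourth, from chrUn_gl000216, shows the pentamer ATTCC of human satellite DNA, with matches to ATTCC or GGAAT in capitals, 105 of its 150 bases. Its 3 covered CpGs read 2.3%, 7% and 0% in Neg and 0% each in dCas9+3A+HOXA5, from 5 or 6 reads each in the latter.

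chrUn_gl000216:1469-1618: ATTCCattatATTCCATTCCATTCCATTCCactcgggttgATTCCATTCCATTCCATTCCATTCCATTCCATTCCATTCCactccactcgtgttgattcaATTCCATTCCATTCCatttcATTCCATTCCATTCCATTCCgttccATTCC

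CpGs on the contigs were less methylated than those on the chromosomes in both libraries. Their mean level was 33.01% ± 32.3 (SD over 9554 CpGs) in Neg and, 2.96 points higher, 36.0% ± 36.2 in dCas9+3A+HOXA5. On chromosomes 1 to 22, X and Y the mean was 69.4% in Neg against 74.3% in dCas9+3A+HOXA5. Of the contig CpGs, 47.7% in Neg and 45.4% in dCas9+3A+HOXA5 lay under 20%, against 14.2% of chromosome CpGs in each. Above 80% lay 13.0% of contig CpGs in Neg and 18.1% in dCas9+3A+HOXA5, against 56.8% and 64.9% of chromosome CpGs.

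Summed over the contigs, 122705 of 410802 reads were methylated in Neg (29.9%) and 49527 of 157893 in dCas9+3A+HOXA5 (31.4%, two-sided Fisher's exact test, p = 4.54e-28). Reads and CpGs of a fragment are not independent, so that such p-values and the intervals given here cover counting error only. Passing this test depended on chr4_gl000193_random. Without that contig, left out after its values were seen, the mean still differed by 1.83 percentage points. The read shares were then 28.11% in Neg against 28.04% in dCas9+3A+HOXA5, in the other direction, and did not pass (p = 0.605, Fisher's exact test). Such sums also carry the mix of contigs, which differed between libraries. In Neg chrUn_gl000226 held 47434 of the 410802 reads, and in dCas9+3A+HOXA5 3936 of 157893. Its own share rose from 51.2% to 59.5%. The part of this mix in the result was not tested. Of the 35 contigs with 20 or more covered CpGs, the share was higher on 17 and lower on 5 (adjusted p under 0.01, Fisher's exact test). A higher share was thus not confined to chr4_gl000193_random. In a logistic model of the reads, the log odds of methylation were higher in dCas9+3A+HOXA5 by 0.07 on the contigs and by 0.38 on the chromosomes, and the contigs' difference was smaller by 0.31 (SE 0.00648). Over the alternatives run, this last value lay between -0.07 (without CpGs over 10 times the median depth) and -0.43 (minimum of 10 reads). The model uses summed reads, so the contigs' value of 0.07 carries the same mix of contigs and is not the change of a typical contig.

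**Figure D1:**
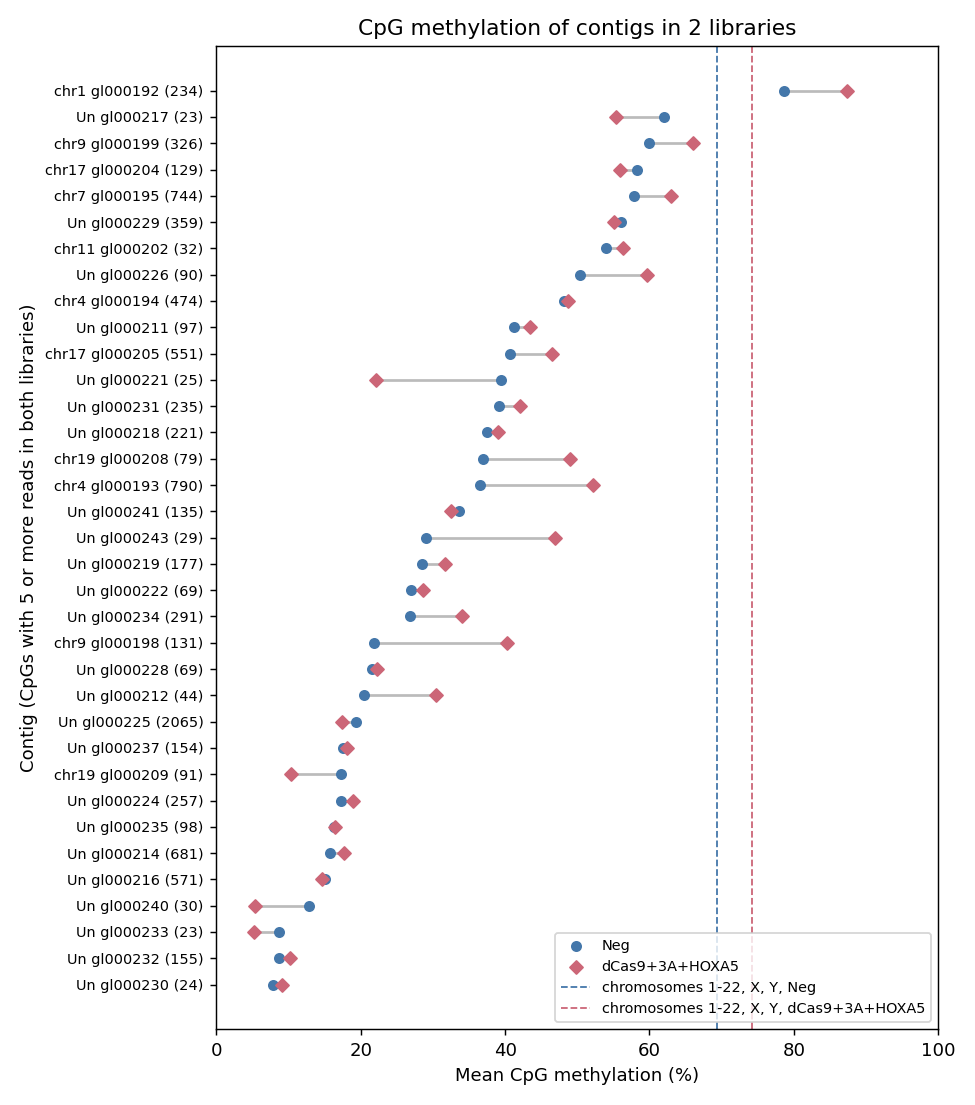
Mean CpG methylation in percent (x axis) of the 35 contigs with 20 or more covered CpGs (y axis, number of CpGs in brackets) in Neg (circles) and dCas9+3A+HOXA5 (diamonds), with dashed lines at the chromosome means of 69.4% and 74.3%. All contigs but chr1_gl000192_random lie to the left of the lines, and their order is nearly the same in both libraries.

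The contigs differed far more among themselves than between the libraries. Over the 35 contigs with 20 or more CpGs, levels ran from 7.89% to 78.6% in Neg with a median of 29.1%, and from 5.28% to 87.4% in dCas9+3A+HOXA5 with a median of 34.0%. The levels of the 2 libraries went together over these contigs (Pearson's r = 0.936, Spearman's rho = 0.934, a description, since contigs share sequence and libraries). Only chr1_gl000192_random, most of which matches the HYDIN region of chromosome 16, lay above the chromosome mean, at 78.6% in Neg and 87.4% in dCas9+3A+HOXA5. Of its 234 covered CpGs, however, only 47 lay in that match. These averaged 66.6% (Neg), under the chromosome mean, and 85.1% (dCas9+3A+HOXA5), above it. The level of the contig is thus mostly that of CpGs outside the HYDIN match. In 11 of the 35 the Neg level was under 20%, and in 8 it was over 50%. The mean was higher in dCas9+3A+HOXA5 on 25 contigs and lower on 10, with a median difference of 1.67 points.

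None of the contigs was called in either direction by the rule used throughout, an adjusted p under 0.01 (Fisher's exact test on summed reads, Benjamini-Hochberg over all sequences) with a difference of mean level over 20 points. The share called was 0% in each direction among all 72 sequences tested as well. This count depends on the CpGs admitted. With CpGs from 1 read on, 3 contigs were called higher, chr4_gl000193_random (27.8% and 49.2%), chr17_gl000203_random (42.2% and 64.5%) and chrUn_gl000238 (42.7% and 73.5%). Without CpGs under 80% G on the opposite strand, chr9_gl000198_random was (21.7% and 42.5%). The share of all sequences called under these settings is not given here, so these counts have no background beside them. At the adjusted p alone, the read share was higher in dCas9+3A+HOXA5 on 17 of the 35 contigs and lower on 5. By the same rule it was higher on 63.9% and lower on 8.33% of all 72 sequences, and higher on all 24 chromosomes. The mean over CpGs and the share of reads differed in sign on 9 of the 35, 6 of them with an adjusted p under 0.01.

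The contig with the most covered CpGs, the unplaced chrUn_gl000225 with 2065, had a mean of 19.4% in Neg and 17.5% in dCas9+3A+HOXA5, while its read share was 12.7% and 13.5%. Next came chr4_gl000193_random with 790 CpGs, whose mean was 36.6% in Neg against 52.1% in dCas9+3A+HOXA5. On chr7_gl000195_random the 744 CpGs averaged 57.9% and 63.0%, with both measures higher in dCas9+3A+HOXA5. The 681 CpGs of chrUn_gl000214 averaged 15.8% in Neg and 17.6% in dCas9+3A+HOXA5, with read shares of 16.1% and 13.0% that ran the other way. The 571 CpGs of the pentamer contig chrUn_gl000216 averaged 15.1% and 14.7%, with read shares of 10.79% and 11.995% that also ran the other way.

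Of the contigs with 20 or more CpGs, the satellite contig chr9_gl000198_random had the largest rise of mean level. It rose from 21.9% in Neg to 40.3% in dCas9+3A+HOXA5 over 131 CpGs, and its read share rose from 19.9% to 39.5% (adjusted p = 4.43e-36, Fisher's exact test). On chrUn_gl000243, a copy at 99.7% identity of a block of chromosome 21, 29 CpGs rose from 29.1% to 46.9% (exact test, adjusted p = 0.00105). Its placed block did not share this rise, as 40 covered CpGs there went from 35.3% (Neg) to 35.1% (dCas9+3A+HOXA5). Next in size was the rise of chr4_gl000193_random, with 15.6 points. The 79 CpGs of chr19_gl000208_random rose from 36.9% to 49.0% (adjusted p = 1.87e-32, exact test). For chrUn_gl000212 the means were 20.4% and 30.4% over 44 CpGs, and the reads did not pass the test (exact test, adjusted p = 0.213).

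The lowest difference was on chrUn_gl000221, whose 25 CpGs fell from 39.4% in Neg to 22.2% in dCas9+3A+HOXA5 (adjusted p = 2.87e-04, exact test). On chrUn_gl000240 the 30 CpGs fell from 12.8% to 5.41% (adjusted p = 0.00517, exact test). The 91 CpGs of chr19_gl000209_random, another version of the KIR cluster of receptors of natural killer cells on chromosome 19, fell from 17.3% to 10.4% (adjusted p = 0.00225, exact test). The means of chrUn_gl000217 were 62.0% and 55.4% and those of chrUn_gl000233 were 8.67% and 5.28%, each over 23 CpGs, and neither passed the test (exact test, adjusted p = 0.565 and 0.312). Of these contigs, chrUn_gl000221, chrUn_gl000240, chr19_gl000209_random and chrUn_gl000217 also lost depth in dCas9+3A+HOXA5, as given with the depths. The longest match of chrUn_gl000221 on a chromosome went from 17.4% in Neg to 21.7% in dCas9+3A+HOXA5 (36 CpGs). That of chrUn_gl000240 went from 36.3% to 42.4% (36 CpGs), and that of chr19_gl000209_random from 30.2% to 30.8% (19 CpGs). The longest matches of chrUn_gl000217 and chrUn_gl000233 fell, from 23.8% to 19.6% (47 CpGs) and from 7.1% to 2.81% (30 CpGs).

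Sorted by their reference sequence, 3 contigs were satellite (at least 50% of their 24-base words recur within the contig), 47 duplicated (at least 50% aligned to a chromosome at 90% identity or more) and 8 other. The satellite class thus does not hold all satellite sequence. The pentamer contig chrUn_gl000216 (25.7% recurring words, means of 15.1% and 14.7%) was classed as other. So was chr19_gl000208_random with 45 CENP-B boxes (46.7% recurring words, means of 36.9% and 49.0%). The satellite contigs chr9_gl000198_random, chr9_gl000199_random and chrUn_gl000226 averaged 49.2% ± 33.9 (SD over 547 CpGs) in Neg against 58.8% ± 35.9 in dCas9+3A+HOXA5. The duplicated contigs averaged 34.6% ± 31.9 in Neg against 38.7% ± 35.6 in dCas9+3A+HOXA5 (4611 CpGs), and the other contigs 29.3% ± 31.9 and 30.2% ± 35.4 over 4396. The mean thus differed most in the satellite class, by 9.60 points, against 4.14 in the duplicated and 0.904 in the other class. By read share the duplicated class differed most, by 7.57 points, against 4.44 in the satellite and 3.78 in the other class. These shares are of reads summed over a class, and the contigs' parts in the sums differed between libraries. The part of this in the order of the classes was not tested. Without chr4_gl000193_random the difference of the duplicated class was 1.77 instead of 4.14 points. With chr9_gl000198_random alone, the satellite contig that kept its depth, the difference of the satellite class was 18.4 points. Its class rests on the whole contig. Of its 131 covered CpGs, 86 lay in a stretch that aligned to chromosome 9 at 94.96% identity. CpGs in a 50-base word found once in the reference held 2960 of its 3372 Neg reads. The 18.4 points are thus not a value of tandem repeats alone.

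Unlocalised contigs had higher levels than unplaced ones in both libraries. The 3592 CpGs on 14 unlocalised contigs averaged 48.0% ± 35.8 in Neg against 55.2% ± 37.6 in dCas9+3A+HOXA5. The 5962 CpGs on 35 unplaced contigs averaged 23.98% ± 26.3 and 24.4% ± 29.8, and their read share went from 21.8% to 19.4%. Of the reads behind this share, chrUn_gl000226 held 47434 of 283178 in Neg and 3936 of 103757 in dCas9+3A+HOXA5. Its own share rose from 51.2% to 59.5%, and the part of its lost depth in the lower summed share was not tested.

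Within contigs, the largest block of change was on chr4_gl000193_random. Of 227 contig windows of 10 kb with 5 or more covered CpGs, 8 were called higher and 1 lower, where 3.29% of the windows of all sequences were called higher and 0.737% lower, so that the share of contig windows was near the background. Of the 8, 6 lay on chr4_gl000193_random and 2 on chr9_gl000198_random.

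On chr4_gl000193_random the bases from 10001 to 70000 had a mean of 8.498% ± 14.7 (SD over 65 CpGs) in Neg and 39.9% ± 33.1 in dCas9+3A+HOXA5, from 37 of 476 and 174 of 439 reads. The 5 windows called there had means of 5.24% to 14% in Neg and 39.0% to 63.9% in dCas9+3A+HOXA5. The middle of the contig, from 70001 to 110000, holds a repeat with a period of 1409 bp (from 81696 to 102987) and most of its covered CpGs, and it averaged 40.3% ± 31.6 in Neg against 54.2% ± 30.6 in dCas9+3A+HOXA5 over 695 CpGs. Beyond 110000, 16 CpGs averaged 14.1% and 50.1%. At the start of the contig, bases 1 to 10000, the means of 14 CpGs were 6.21% and 5.61%, but with CpGs from 1 read on they were 8.25% and 31.3% over 70 CpGs.

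The left arm of this contig, bases 4791 to 77125, aligned to chromosome 4 at 190470115 to 190535505 with 97.5% identity, next to the end of the long arm. The placed copy had only 10 covered CpGs, which averaged 32.1% in Neg and 50.2% in dCas9+3A+HOXA5, where the contig's 81 CpGs averaged 9.01% and 41.4%. The right arm, from 103413 on, aligned to chromosome 9 at 67789774 to 67880662 with 97.6% identity, a block that holds FAM27B. There the 23 covered CpGs averaged 37.4% in Neg and 45.3% in dCas9+3A+HOXA5, against 44.9% and 58.8% for 115 CpGs of the contig. Its other placed copies of 10 kb or more had 3 or fewer covered CpGs each.

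In chr9_gl000198_random the covered CpGs lay in its right part. The window from 70001 to 80000 rose from 24.7% in Neg to 50.7% in dCas9+3A+HOXA5 (48 CpGs), and that from 80001 to 90000 from 23.1% to 43.5% (52 CpGs). The longest alignment of this stretch was to chromosome 9 at 68669409 to 68686698 with 94.96% identity, where 4 CpGs averaged 38.3% in Neg and 25% in dCas9+3A+HOXA5. It also aligned to chromosome 9 at 68495243 to 68509108 with 94.8% identity, where 11 CpGs averaged 27.0% and 30.2%. A further copy lay on chromosome 4 at 190800587 to 190815437 with 93.7% identity, where 13 CpGs averaged 80.2% and 75.8%. The window that was lower lay on chr4_gl000194_random, from 60001 to 70000, and fell from 74.3% to 53.5% over 48 CpGs.

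**Figure D2:**
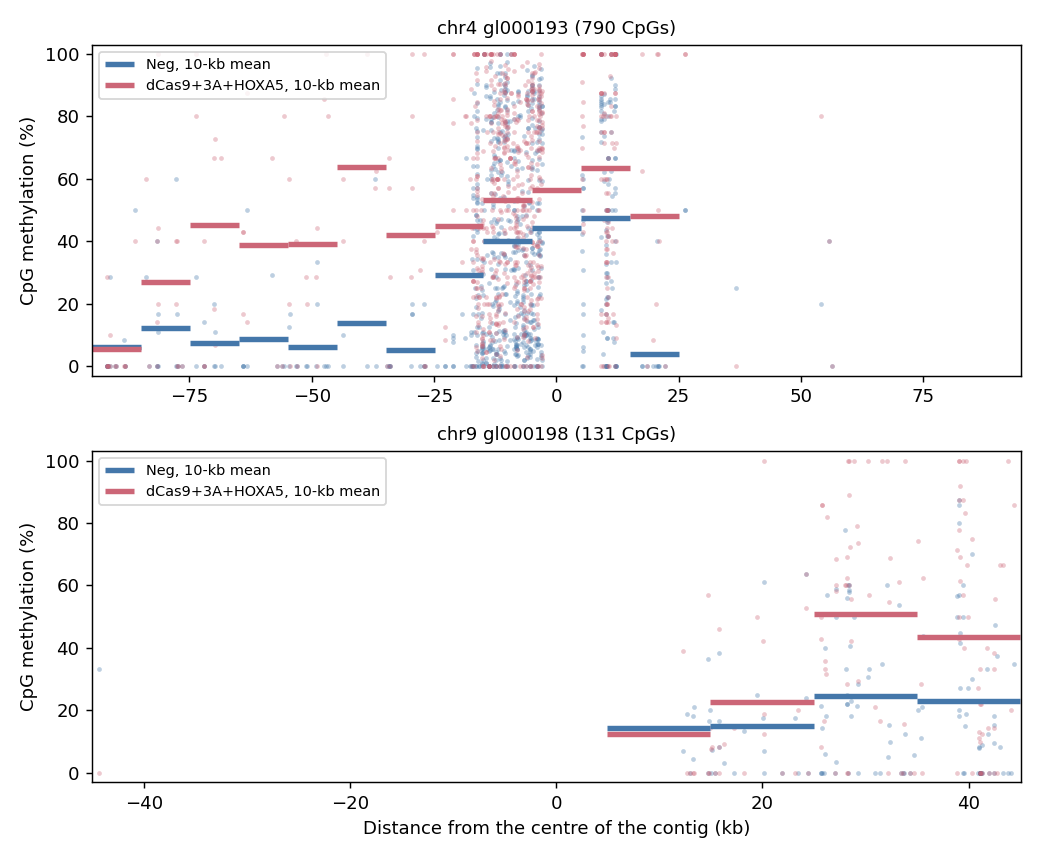
CpG methylation in percent (y axis) along chr4_gl000193_random and chr9_gl000198_random by distance from the contig's centre in kb (x axis), in Neg (blue) and dCas9+3A+HOXA5 (red), with single covered CpGs as points and 10-kb means as bars. On chr4_gl000193_random the red bars lie above the blue ones from the second window on, with the widest gaps outside the dense middle.

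At 1-kb resolution, 21 of 557 contig tiles were called higher and 2 lower. Of all 68042 tiles 2.41% were called higher and 1% lower, against 3.77% and 0.359% of the contig tiles. The 23 tiles lay on 12 contigs, with 6 of the gains on chr4_gl000193_random, 3 on chr17_gl000205_random and 2 each on chr4_gl000194_random, chr9_gl000198_random and chrUn_gl000214. None of the 114 tiles of chrUn_gl000225 and none of the 33 of chrUn_gl000216 was called.

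The largest gain among the called contig tiles, the tile from 73001 to 74000 of chr4_gl000193_random printed in part near the start, went from 3 methylated of 59 reads in Neg to 29 of 37 in dCas9+3A+HOXA5 (mean 5.36% and 82.7% over 5 CpGs, adjusted p = 1.85e-11, Fisher's exact test). Its CpGs in order read 7.7%, 0%, 10%, 9.1% and 0% in Neg and 50%, 77.8%, 100%, 85.7% and 100% in dCas9+3A+HOXA5. On the same contig, the tile from 115001 rose from 8% to 62.0% over 5 CpGs and that from 100001 from 33.7% to 82.4% over 17 CpGs. The tile from 102001 of chr4_gl000194_random rose from 50.6% to 97.6% over 6 CpGs, and that from 70001 of chr9_gl000198_random from 5.95% to 48.2% over 6 CpGs.

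Of the 2 losses, the tile from 37001 of chr17_gl000204_random fell from 45.5% in Neg to 3.34% in dCas9+3A+HOXA5 over 5 CpGs, 19 of 37 reads against 1 of 27 (adjusted p = 0.00133, Fisher's exact test). The other, from 68001 of chr4_gl000194_random, fell from 77.0% to 55.5% over 33 CpGs (adjusted p = 6.70e-06, exact test).

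Single CpGs were called higher at 24 and lower at 3 of 9554 contig CpGs, where 0.0132% and 0.00285% of all covered CpGs were called. The contig CpGs are deeper, with medians of 16 and 9 reads in the 2 libraries where all covered CpGs have 7 and 6, and without CpGs over 10 times the median depth 1 was called higher and 0 lower. At an unadjusted p under 0.05 (Fisher's exact test) there were 653 higher (6.83%) and 211 lower (2.21%), where 3.62% and 1.87% of the 1319472 chromosome CpGs were. Of the 24, 12 lay on chr4_gl000193_random, 6 on chr9_gl000199_random, 4 on chrUn_gl000226 and 1 each on chr19_gl000208_random and chr9_gl000198_random. The 3 lower ones were at 124716 of chr9_gl000199_random, from 37.8% to 4.4%, and at 13207 and 13213 of chrUn_gl000226, from 52.5% to 2.8% and from 57.5% to 10.5%.

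The pair of called CpGs in the stretch of chrUn_gl000226 printed near the start went from 26 of 235 reads in Neg to 15 of 26 in dCas9+3A+HOXA5 at 9684 (11.1% and 57.7%) and from 71 of 256 to 25 of 26 at 9692 (27.7% and 96.2%). The neighbouring CpG at 9727 read 5.2% and 19.2%. The contig's depth was at 115225 reads in Neg against 4022 in dCas9+3A+HOXA5, so these values rest on few reads of the second library.

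CENP-B boxes, searched as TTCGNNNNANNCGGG on both strands, were found 367 times on 6 contigs, of which 275 on chr9_gl000199_random, 45 on chr19_gl000208_random and 44 on chrUn_gl000226. A box was present in 3.11% of the 1-kb tiles of the contigs and in 0.0547% of those of chromosomes 1 to 22, X and Y. CpGs inside a box were more methylated than the other CpGs of the same contigs. Their mean was 67.0% ± 17.8 (SD over 124 CpGs) in Neg and 73.9% ± 23.5 in dCas9+3A+HOXA5, against 49.5% ± 33.8 and 52.4% over 1071 CpGs outside. Of the CpGs outside, 472 lay on chr4_gl000194_random, which has only 2 covered box CpGs. A further 129 and 97 lay on chr17_gl000204_random and chrUn_gl000211, with 1 box each. The pooled outside means thus largely describe contigs with almost no box CpGs. Reads outside were spread otherwise, and most lay on box-rich contigs. In Neg chr9_gl000199_random and chrUn_gl000226 held 30393 and 37425 of 79915, and in dCas9+3A+HOXA5 6416 and 3098 of 16103. On chr9_gl000199_random, chr19_gl000208_random and chrUn_gl000226 alike, the mean was higher at box CpGs in both libraries.

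In reads, 65.0% were methylated at box CpGs in Neg (Wilson 95% interval 64.3% to 65.6%) and 75.6% in dCas9+3A+HOXA5 (74.2% to 76.9%). Outside the boxes the share was 47.3% in Neg and higher by 2.70 points in dCas9+3A+HOXA5. The difference of log odds between libraries was larger at box CpGs by 0.40 (SE 0.0437, p = 2.48e-20, interaction in a binomial logistic model of reads), and by 0.19 (p = 0.0102) with CpGs of unique sequence only. Within single contigs the same model gave 0.32 (SE 0.0562) for chr9_gl000199_random, 0.20 (SE 0.0864) for chrUn_gl000226 and -0.80 (SE 0.268) for chr19_gl000208_random, each below the pooled value. These 3 contigs hold all but 2 of the box CpGs, and all 3 were called lower in relative depth, with ratios of 0.227, 0.067 and 0.485, whose part in this difference was not tested. By mean level these contigs showed little or no excess at box CpGs. On chr9_gl000199_random the mean went from 69.5% to 75.3% at box CpGs and from 55.9% to 62.2% outside, differences of 5.83 and 6.28 points. The differences were 9.50 points at box CpGs and 9.23 outside on chrUn_gl000226, and 0.650 and 12.7 on chr19_gl000208_random. On chr9_gl000199_random the 96 box CpGs had shares of 70.8% and 77.7%, and the 230 others 46.1% and 47.1%. On chrUn_gl000226 the 22 box CpGs had shares of 58.2% and 69.6%, and the 68 others 49.3% and 56.7%. The larger difference at box CpGs was not general, since on chr19_gl000208_random 4 box CpGs had shares of 59.9% and 59.1%, while the 75 others had 36.3% and 55.1%. The box printed near the start, with CpGs at 51535 and 51544 of chr9_gl000199_random, went from 47.3% to 83.3% and from 32.2% to 60.6%.

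**Figure D3:**
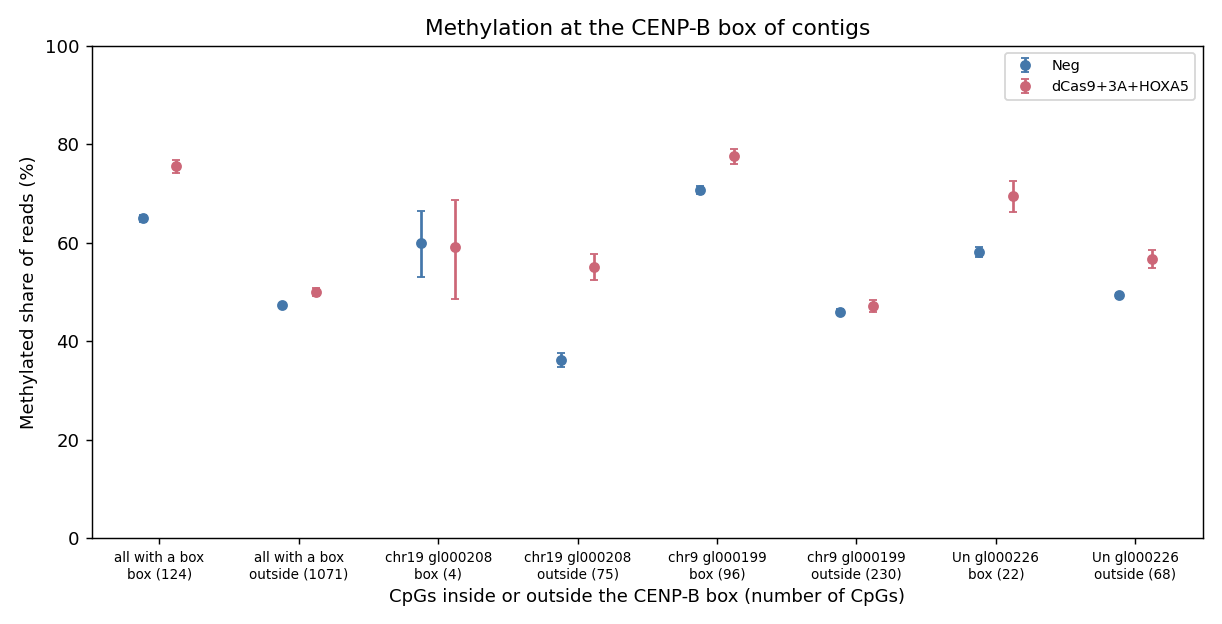
Methylated share of reads in percent (y axis) at CpGs inside or outside the CENP-B box (x axis, number of CpGs in brackets), over all contigs with a box and for 3 of them, in Neg (blue) and dCas9+3A+HOXA5 (red), with Wilson 95% intervals as bars. Box CpGs sit above the CpGs outside in Neg on each of the 3 contigs, and the red points lie above the blue ones in all pairs but the 4 box CpGs of chr19_gl000208_random.

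Relative to the chromosomes, depth on the contigs was lower in dCas9+3A+HOXA5 than in Neg. The listed CpGs of the contigs held 791286 reads in Neg against 201791 in dCas9+3A+HOXA5, while chromosomes 1 to 22 held 86000851 and 44834966. Relative depth, the reads per reference CpG over that of chromosomes 1 to 22 in the same library, was 3.25 in Neg against 1.59 in dCas9+3A+HOXA5 over all contigs, a ratio of 0.489. The median over the 58 contigs was 1.12 in Neg against 0.621 in dCas9+3A+HOXA5.

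By an adjusted p under 0.01 (Fisher's exact test against the reads of chromosomes 1 to 22) and a change over 1.5 times, 36 of 58 contigs were lower in dCas9+3A+HOXA5 and 0 higher, with a median ratio of 0.447. Over the CpGs listed in both libraries alone, 19 were lower, with a median ratio of 0.814. Among all 93 sequences, these contigs included, 50.5% were lower and 1.08% higher, and chromosomes 1 to 22 had ratios from 0.697 to 1.13. In windows of 50 kb, 88 of 139 contig windows were lower and 0 higher, where 10.3% of all windows were lower and 1.21% higher.

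The 5 highest relative depths in Neg were on contigs of all 3 classes. On chrUn_gl000226 it was 134 in Neg against 8.99 in dCas9+3A+HOXA5, and on chr9_gl000199_random 13.5 and 3.06. Both lost depth by the rule above. It was 10.4 and 4.82 on chrUn_gl000214, 9.13 and 7.69 on chrUn_gl000225 and 6.22 and 4.69 on chr4_gl000193_random, of which chrUn_gl000214 was called lower.

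Ratios of relative depth under 0.1 were found on 13 contigs, all called, which together went from 137700 reads in Neg to 4763 in dCas9+3A+HOXA5. The 5 with the lowest ratios were chr8_gl000197_random at 0.0171 (900 and 8 reads), chr9_gl000201_random at 0.0329 (2272 and 39), chr9_gl000200_random at 0.0489 (2080 and 53), chrUn_gl000249 at 0.0583 (1086 and 33) and chrUn_gl000227 at 0.0586 (2292 and 70). The next were chrUn_gl000244 at 0.0622, chrUn_gl000223 at 0.0658, chrUn_gl000226 at 0.067 and chrUn_gl000239 at 0.0675. In chrUn_gl000236, chr17_gl000206_random, chrUn_gl000245 and chrUn_gl000242 the ratios were 0.0799, 0.084, 0.0904 and 0.0949. Of these 13 contigs, 11 aligned to a chromosome at 99% identity or more. For example, chrUn_gl000223 matches the zinc finger gene cluster with ZNF605, ZNF26 and ZNF84 on chromosome 12, and chrUn_gl000249 a block of PITPNB on chromosome 22.

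A further 10 contigs had ratios from 0.1 to 0.3. They were chrUn_gl000222 at 0.102, chrUn_gl000228 at 0.109, chr8_gl000196_random at 0.123, chr21_gl000210_random at 0.174, chrUn_gl000221 at 0.176, chrUn_gl000215 at 0.209, chr9_gl000199_random at 0.227, chrUn_gl000243 at 0.235, chr1_gl000191_random at 0.267 and chrUn_gl000213 at 0.293. Among them chrUn_gl000228 holds a repeat of 3306 bp, and chr1_gl000191_random matches PNRC2 and SRSF10 on chromosome 1. The longest alignment of chrUn_gl000228 was to the FRG2B and DUX4-like genes at the end of chromosome 10. Alignments to chromosome 4 covered more of it than those to any other chromosome, 88.6%.

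Between 0.3 and 0.5 lay 9 called contigs, namely chrUn_gl000238 at 0.324, chrUn_gl000247 at 0.331, chrUn_gl000248 at 0.359, chrUn_gl000224 at 0.385, chrUn_gl000217 at 0.427, chrUn_gl000246 at 0.429, chrUn_gl000214 at 0.465, chr17_gl000203_random at 0.467 and chr19_gl000208_random at 0.485. The last 4 called were chr1_gl000192_random at 0.533, chrUn_gl000240 at 0.607, chrUn_gl000237 at 0.651 and chr19_gl000209_random at 0.663. Of the contigs above with the largest rises of methylation, chrUn_gl000243 and chr19_gl000208_random are thus among those that lost depth, and the part of this in their methylation was not tested.

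In 17 contigs the ratio was 0.8 or more, and they carried 5909 of the 9554 covered CpGs. The 5 highest were chrUn_gl000231 at 1.22 (4972 and 3171 reads), chrUn_gl000234 at 1.21, chrUn_gl000229 at 1.14, chrUn_gl000241 at 1.10 and chrUn_gl000232 at 1.02. None of these passed the threshold of 1.5 times. The remaining 5 contigs without a call, chr4_gl000194_random, chr18_gl000207_random, chr17_gl000204_random, chr4_gl000193_random and chrUn_gl000212, had ratios from 0.687 to 0.754. With 44 reads in Neg against 16 in dCas9+3A+HOXA5, chr18_gl000207_random was too shallow to place (95% interval 0.367 to 1.26).

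The ratio went with how unique the sequence is. How multiply matching reads were placed in each library is not known here, and its part in these ratios was not tested. Over the 58 contigs it rose with the share of 50-base words found only there in the reference (Spearman's rho = 0.882, Pearson's r of the log2 ratio 0.776, descriptions over contigs that share sequence). All 24 contigs with under 10% unique words were called lower, and 3 of the 24 with at least 30%. Over the same contigs rho was 0.454 with relative depth in Neg, -0.298 with the share aligned to chromosomes, -0.158 with CpGs per kb, 0.144 with length, -0.138 with GC content and 0.0791 with words recurring within the contig. The contigs with most words recurring inside them differed in ratio. It was 0.989 on chr9_gl000198_random, 60.6% of whose 24-base words recur, and 0.227 on chr9_gl000199_random with 80.8%. On chrUn_gl000226, with 96.7%, it was 0.067.

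**Figure D4:**
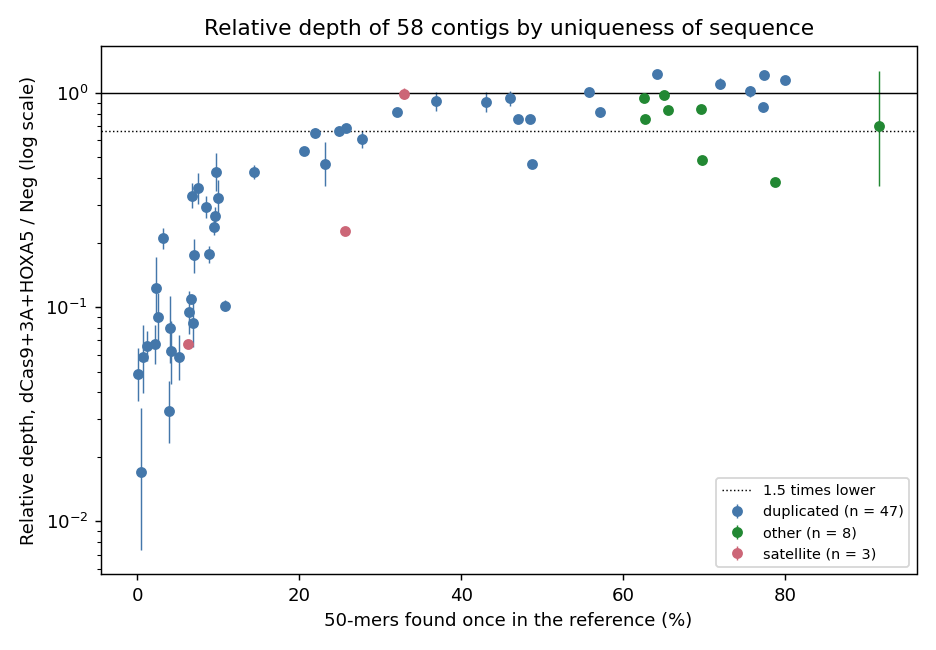
Ratio of relative depth between dCas9+3A+HOXA5 and Neg (y axis, log scale) of the 58 contigs by the percent of their 50-base words found only there in the reference (x axis), coloured by class, with exact 95% intervals as bars. The contigs under 10% all lie under the dotted line at 1.5 times lower, and most of those above 50% lie near 1.

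The same was seen inside contigs. Over reference CpGs in a unique 50-base word the pooled ratio was 0.836, and 85.2% of them were listed for Neg and 63.5% for dCas9+3A+HOXA5. For CpGs in none it was 0.16, and 80.8% and 12.9% were listed. It was 0.257 for CpGs whose words occur at 2 places, 0.173 for 3 to 4, 0.0953 for 5 to 9 and 0.0775 for 10 or more. In each of 43 contigs with at least 200 Neg reads in both kinds of sequence, the ratio was higher in the unique part, with medians of 0.876 and 0.196.

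**Figure D5:**
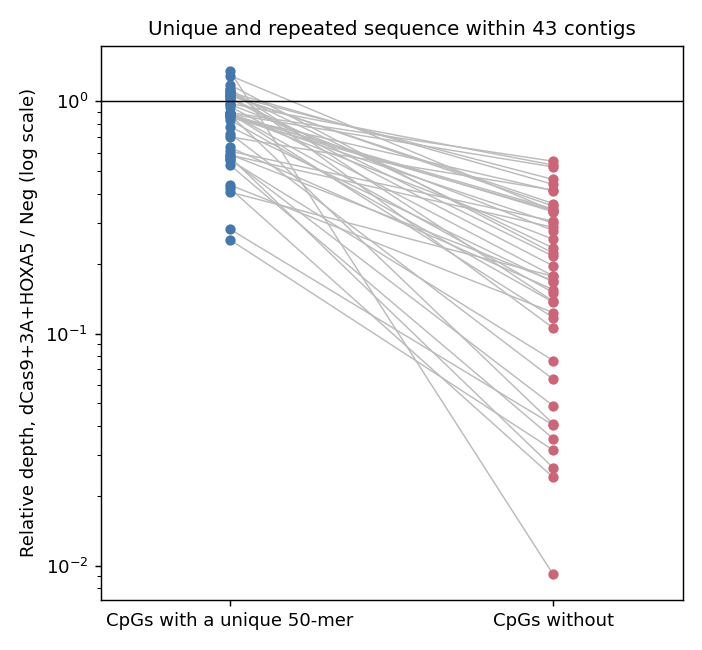
Ratio of relative depth between dCas9+3A+HOXA5 and Neg (y axis, log scale) for CpGs with and without a unique 50-base word (x axis), with a line for each of 43 contigs. Every line falls from left to right, and the lowest point, of chr11_gl000202_random, rests on 628 reads in Neg against 3 in dCas9+3A+HOXA5.

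Placed copies of the contigs at 99% identity or more had low ratios as well, while at lower identity contig and copy often differed. For 29 contigs whose longest alignment was at 99% identity or more, the median ratio was 0.102 on the aligned part of the contig and 0.159 on its copy on a chromosome. With 8 alignments at 97% to 99% the medians were 0.667 and 0.592, and with 17 under 97% they were 1.02 and 0.737. These medians hide single pairs that differed, such as chrUn_gl000239 (0.0675 on the contig and 0.848 on its copy) and chrUn_gl000230 (1.07 and 0.0837). Other pairs were close, such as chrUn_gl000231 (1.22 and 1.10). An example at high identity is chr9_gl000200_random. It aligned over its whole length to chromosome 9 from 44451829 to 44639038 at an identity that rounds to 100%. The contig had 2080 reads in Neg against 53 in dCas9+3A+HOXA5, and the placed copy 2231 and 30. The 9 haplotype sequences of hg19, alternative versions of placed regions, had ratios from 0.0206 to 0.0894.

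The difference of mean methylation was 2.63 points in unique and 5.29 points in other sequence, and by read share it was 3.61 and 3.19 points, in the opposite order. Contig CpGs in a unique 50-base word averaged 32.5% in Neg and 35.1% in dCas9+3A+HOXA5 (8372 CpGs), and those in none 36.7% and 42.0% (1182 CpGs). Over the 35 contigs with 20 or more CpGs, the difference of level had a Spearman's rho of 0.0317 with the ratio of depth, given as a description. Of 27 contigs with 5 or more covered CpGs on both the contig and its placed copy, the contig was the less methylated of the pair in 13 in Neg and in 15 in dCas9+3A+HOXA5.

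The depth also set which CpGs could be compared. In Neg 28423 contig CpGs had 5 or more reads, and 33.6% of them did in dCas9+3A+HOXA5 too, whereas 87.5% of the 10913 in dCas9+3A+HOXA5 did in Neg. The Neg level of the 18869 CpGs lost by this was 41.3%, above the 33.01% of those kept. On the opposite strand, under 80% of reads showed the G expected of a CpG at 11.4% of covered contig CpGs and at 2.40% of those on chromosomes (the measure behind the deposited correction for C-to-T differences), and over 10 times the median depth was found at 13.4% and 0.362%.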

How the data were processed

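WGBS was run on 1 Neg and 1 dCas9+3A+HOXA5 library of HEK293T cells, grouped by their titles. The authors aligned trimmed reads to hg19 with BSMAP (version 2.90 per the submitters' processing notes) and computed the methylation ratio per CpG. How duplicates and multiply matching reads were treated was not given in the sources used here. Per the file headers, the deposited tables hold, per CpG with both strands combined, counts of C and of C or T reads and of G and G or A reads on the opposite strand. The authors' software also gave an estimated count, the C or T count corrected by the opposite strand, and the fraction, C over that count, with its bounds. Levels here are means of the deposited fraction. Tests used the counts.

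Fisher's exact tests were adjusted by Benjamini-Hochberg over all sequences, 1-kb tiles, 10-kb windows or CpGs (minimum of 5 reads in each library, as in the study's methods though the tables list CpGs from 1 read, and 5 CpGs per tile, window or sequence). A call needed an adjusted p under 0.01 and over 20 percentage points, or over 1.5 times for relative depth. Sequence features came from GRCh37 (all 64027 listed contig CpGs fell on a CG), copies from 50-base words and minimap2 2.31 alignments of at least 90% identity, with GENCODE genes of the placed copy. Named contigs were the 5 with most covered CpGs, the 5 largest rises and falls among those with 20 CpGs, the 5 deepest in Neg, the 5 largest changes of relative depth each way among those with 500 Neg reads, and all called; tiles likewise. Genes named come from the placed copies. The members and lists were chosen with earlier results of these data known, and windows of 10 kb, copy bins and placed copies after the values were seen.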

Additional observations from a re-analysis of the deposited data

How the results depend on the processing

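Of 102 recomputed values, 70 were unchanged by these rules: tested values kept direction and side of a p of 0.05, counts lay within 1.5 times, and differences of a class moved by no more than the half-width of the 95% interval of its read-share difference. Some of the 70 could not change. Without chrUn_gl000225, which has no box, the CENP-B value was again 0.40. Without chr4_gl000193_random, a duplicated contig, the satellite and other classes again differed by 9.60 and 0.904 points. The stricter threshold of 2 times could not add contigs higher in depth. The 70 is thus no measure of how stable the results are. The value that reversed was the difference of log odds at CENP-B box CpGs, which was -0.80 within chr19_gl000208_random (4 box CpGs). At a p of 0.01 that difference would also be lost with CpGs of a unique 50-base word (p = 0.0102, binomial model) and within chrUn_gl000226 (p = 0.0214, binomial model). With CpGs from 1 read on, 3 contigs were called higher (chr4_gl000193_random, chr17_gl000203_random and chrUn_gl000238), 67 tiles were higher and 8 lower of 1721, 14 CpGs were higher, and the duplicated and other classes differed by 5.14 and 1.51 points. With a minimum of 10 reads, 9 tiles were higher and 1 lower, 51 CpGs were higher and 6 lower, and the satellite class differed by 8.69 points. Without CpGs over 10 times the median depth, 1 CpG was higher and 0 lower. Without CpGs under 80% G on the opposite strand, 1 contig, chr9_gl000198_random, was higher. By share of summed reads, 1 tile was lower and the duplicated, other and satellite classes differed by 7.57, 3.78 and 4.44 points. In 500-bp tiles 0 were lower. With satellite set at 30% recurring words the class differed by 7.15 points. Over CpGs listed in both libraries 19 contigs were lower in relative depth, with a median ratio of 0.814.

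Chosen after seeing the data were 3 more, beside the values within single contigs. With CpGs of a unique 50-base word, 14 CpGs were higher and 0 lower, and the satellite class differed by 13.0 points. Without the contigs lower in depth, 13 CpGs were higher and 0 lower, and the duplicated and satellite classes differed by 5.29 and 18.4 points. Without chr4_gl000193_random the mean differed by 1.83 points and the read shares, slightly lower in dCas9+3A+HOXA5, no longer passed, 12 CpGs were higher, and the duplicated class differed by 1.77 points. Where these settings test fewer CpGs, fewer calls can follow from that alone. Otherwise the cause was not tested. The shares called over all sequences, tiles or CpGs under the alternative settings are not given, so the counts of calls cannot be set against a background.

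No paired analysis was possible because there is 1 library per group. Leaving out a library was likewise impossible. Depth limits the dCas9+3A+HOXA5 library most, where many of the contigs that lost depth have few covered CpGs or none, and reads of near-identical copies cannot be told apart.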
